A study of Mus musculus with 24 samples.

Results

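The genes described are 15 glycolytic enzymes and 21 genes known to be induced by low oxygen, chosen as a list of mouse symbols and matched to the Ensembl gene IDs of the deposited count table. They are 36 of 46517 gene entries, and all 36 passed the filter on low counts that left 14866 genes for testing. RNA was sequenced from βTC3 cells, a mouse insulinoma line from the Rip-Tag2 mouse, in which the insulin promoter drives a viral large T antigen in beta cells. The miR-23b line carried the plasmid PB-31 miR-23b cluster, the miR-137 line PB-31 miR-137, and the control line PB-31. Cells with 7 d of doxycycline (DOX) were grown with 2 µg/ml in the medium, withdrawn cells had the same 7 d followed by 7 d without DOX, and no DOX cells had 7 d of DMEM alone. All these groups carried a PB-31 plasmid, and the control line had no withdrawn group. The sources used here do not say whether a line is 1 clone or a pool. Each of the 8 groups held 3 libraries from cells plated in triplicate, so all spreads, errors and p-values measure differences between these libraries, which may be technical. Untreated cells kept as long as the withdrawn cells were not among the groups, and the labels name no plate, day or sequencing run, so DOX treatment and a culture batch cannot be told apart within a line.

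Glycolysis splits glucose into pyruvate and yields ATP without oxygen, through hexose phosphates, the phosphofructokinase step, the cleavage by aldolase and a chain of triose phosphates. In low oxygen, hypoxia-inducible factors (HIF) escape the prolyl hydroxylases that mark their alpha subunits for destruction, and they bind DNA at a short core motif to raise many glycolytic enzymes and genes of mitophagy, angiogenesis, collagen and glycogen. Beta cells normally pass most glycolytic pyruvate to the mitochondria, and the resulting ATP couples glucose to insulin release.

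The libraries held 15759849 to 24144737 reads counted in genes, and the common coefficient of biological variation over the 8 groups was 3.00%. The beta cell label was met by its markers: the summed level of 15 markers was 20130 to 24550 CPM (gene counts scaled to library size by TMM) per library, with none at 0. Markers of leukocytes summed to at most 4.13 CPM, of endothelium to at most 1.28, of fibroblasts and stellate cells to at most 4.57, and of exocrine and duct cells to at most 1.78. The induced locus Mir23b stood at a mean of 53.2 unadjusted CPM with DOX, against 0.154 without DOX in the miR-23b line. Gm26871, the host of miR-137, stood at 123 unadjusted CPM with DOX, against 4.35 without DOX in the miR-137 line. After withdrawal both were at or under their no DOX level, with Mir23b at 0.0386 and Gm26871 at 2.58. In bulk RNA of this kind, fewer cells of a type and less RNA per cell cannot be told apart.

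Mature miRNAs of the plasmids are shown with their seeds because any direct match in the transcripts of these genes would pair with those bases. The cluster on the first plasmid holds the genes of miR-24, miR-27b and miR-23b, but the mature miR-23b is neither shown nor searched for here. Mature sequences are from RefSeq on GRCm38.p6, written 5′ to 3′ with bases 2 to 8, the seed, in capitals, and the 3 printed seeds differ from each other. mmu-miR-27b-3p lies at chr13:63300760-63300780, mmu-miR-24-3p at chr13:63301251-63301272 and mmu-miR-137-3p at chr3:118433901-118433923, all on the plus strand.
mmu-miR-27b-3p: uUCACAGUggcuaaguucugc
mmu-miR-24-3p: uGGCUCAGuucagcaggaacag
mmu-miR-137-3p: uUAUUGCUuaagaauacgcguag
The search used the longest 3′ untranslated region annotated for a coding transcript of each gene (GRCm38, GENCODE M21). Whether these cells make that transcript was not tested. In these regions of the 36 genes, the 7 letters that pair with the miR-24-3p seed, CTGAGCC, were found in 8 genes (22.2%, against 19.6% of 12979 genes tested that have such a region). Those of miR-27b-3p, ACTGTGA, were found in 5 genes (13.9%, against 17.9% of the same 12979), and those of miR-137-3p, AGCAATA, in Narf alone (2.78%, against 10.6%). Of the genes that fell most in the miR-23b line, Tpi1 held 1 match to miR-24-3p, Pfkl held 3 and Gys1, with a smaller fall, held 1 match to miR-27b-3p. Egln3 and Pfkp fell further than Gys1 and held none of these letters, and Mxi1, which rose, held a match to miR-24-3p. These stretches of 25 bases are printed because they belong to strongly lowered genes, with the paired letters in capitals.
Tpi1 (chr6), miR-24-3p match: ccacgctgtaccctcCTGAGCCgtt
Pfkl (chr10), miR-24-3p match 1: tggtgatcttaaccgCTGAGCCatc
Pfkl (chr10), miR-24-3p match 2: agagactagggagacCTGAGCCctt
Pfkl (chr10), miR-24-3p match 3: gaagtttatgaagggCTGAGCCctg
Gys1 (chr7), miR-27b-3p match: acaagtgctcagcccACTGTGAaac
Bnip3, Aldoa, Aldoc, Fam162a, Eno1 and Pgk1, which are among the 8 genes with the greatest falls, held none of these letters in the region searched, and matches to miR-23b were not part of the search. Over the 12 genes with a miR-27b-3p or miR-24-3p match, the median log2 fold change in the miR-23b line with DOX was -0.89, and over the 24 genes without one it was -0.64. Taken as a difference from the DOX response of the control line, these medians were -0.89 and -0.72. Against the miR-137 line they were nearly equal, at -0.91 and -0.90. Such medians were not made over all genes tested. A match is a description of letters and does not show that a transcript is bound.

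Promoter windows are shown because HIF binds at cores with the letters ACGTG or GCGTG. RefSeq windows of 300 bases around annotated starts (GRCm38.p6) were held for 33 of the 36 genes, in 48 windows. On either strand, with overlapping motifs counted on both, ACGTG was in a window of 21 of these 33 genes (63.6%, against 21.8% of 27025 genes with a window). GCGTG was in 22 (66.7%, against 35.2%), and 1 or the other in 28 (84.8%, against 46.7%). Counted by window, ACGTG was in 52.1% of the 48, against 19.6% of all 32851 windows, and GCGTG in 54.2%, against 32.4%. Either core was in 75.0%, against 43.8%. The genes and windows compared against were not limited to genes tested here. The windows of the 33 genes were also richer in G and C, with a median of 61.7% against 52.7% over all windows, and its part in these shares was not tested. The window of Bnip3 (chr7:138909457-138909756, minus strand) held 5 cores, the most among the genes printed here. That of Ankrd37 (chr8:45999801-46000100, minus strand) held 4, and that of Pgk1 (chrX:106186850-106187149, plus strand) held 2. The Tpi1 window (chr6:124814109-124814408, minus strand) held 0 and is shown beside them because Tpi1 fell nearly as far as Aldoa. Each is written 5′ to 3′ on its gene's strand, and capitals mark the cores on either strand.
Bnip3 promoter window: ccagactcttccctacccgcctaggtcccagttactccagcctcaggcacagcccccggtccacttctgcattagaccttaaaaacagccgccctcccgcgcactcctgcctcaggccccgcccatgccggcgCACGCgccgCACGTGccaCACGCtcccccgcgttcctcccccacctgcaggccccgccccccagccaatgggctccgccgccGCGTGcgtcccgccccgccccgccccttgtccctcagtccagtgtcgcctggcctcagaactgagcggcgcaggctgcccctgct
Ankrd37 promoter window: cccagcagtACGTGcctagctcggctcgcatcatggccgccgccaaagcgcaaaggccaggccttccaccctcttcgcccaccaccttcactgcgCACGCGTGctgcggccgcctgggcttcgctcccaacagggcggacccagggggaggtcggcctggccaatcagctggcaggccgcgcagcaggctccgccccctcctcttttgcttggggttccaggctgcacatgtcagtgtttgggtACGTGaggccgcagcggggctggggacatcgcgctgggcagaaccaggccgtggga
Pgk1 promoter window: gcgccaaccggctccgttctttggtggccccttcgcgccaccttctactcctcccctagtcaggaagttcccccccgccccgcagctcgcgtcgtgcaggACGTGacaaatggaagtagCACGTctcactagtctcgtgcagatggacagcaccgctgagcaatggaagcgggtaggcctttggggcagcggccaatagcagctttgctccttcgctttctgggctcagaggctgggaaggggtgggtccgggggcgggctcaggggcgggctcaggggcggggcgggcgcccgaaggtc
Tpi1 promoter window: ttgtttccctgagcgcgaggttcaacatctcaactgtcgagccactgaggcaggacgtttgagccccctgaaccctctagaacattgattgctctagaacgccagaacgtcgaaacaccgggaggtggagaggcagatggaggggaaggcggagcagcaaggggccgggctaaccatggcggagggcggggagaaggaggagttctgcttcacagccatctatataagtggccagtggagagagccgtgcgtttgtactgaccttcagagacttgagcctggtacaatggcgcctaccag
In the response of the miR-23b line to DOX, the median log2 fold change was -0.73 over the 21 genes with ACGTG and -1.01 over the 12 without it. The 5 genes with neither core, Tpi1, Gpi1, Gys1, Eno2 and Gbe1, had a median of -1.10, against -0.82 over the 28 genes with 1.

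With the miR-23b cluster induced, the glycolytic chain and most of the hypoxia-inducible genes were lower, and 3 genes were higher. After 7 d of DOX, 33 of the 36 genes fell and 3 rose at an adjusted p below 0.05 (edgeR's quasi-likelihood test with Benjamini-Hochberg adjustment over all genes tested, n = 3 libraries per group), while 28.6% of all genes tested were lower and 28.8% higher. The median log2 fold change was -0.82 over the 36 genes and 0.0084 over all genes tested. Of the 15 glycolytic enzymes, 13 were lower and 2 higher, with a median of -1.17. Of the 21 hypoxia-inducible genes, 20 were lower and 1 was higher, with a median of -0.51. The 36 genes took 0.316%, 0.313% and 0.315% of all gene counts in the DOX libraries, against 0.629%, 0.590% and 0.631% in the no DOX libraries. In 32 genes the DOX libraries all lay below the no DOX libraries, in 3 all above, and only Higd1a had overlapping groups. How many of all genes tested separate in this way was not counted. Some markers moved with DOX as well: the 15 beta cell markers summed to 20130 to 20860 CPM with DOX, against 22160 to 22300 CPM without DOX. Singly, all 15 passed the test, 10 lower and 5 higher, with log2 fold changes of -2.31 to 0.988. The 5 endothelial markers summed to 0.741 to 0.864 CPM with DOX, with 0 of 5 at 0, against 0.129 to 0.466 CPM without DOX, with Cdh5 at 0. The 6 leukocyte markers summed to 2.74 to 4.13 CPM with DOX, against 1.87 to 2.23 CPM without DOX. The 7 fibroblast and stellate markers summed to 3.18 to 4.19 CPM with DOX, with Col3a1 and Dcn at 0, against 2.35 to 2.52 CPM without DOX, with Col3a1, Dcn and Lum at 0, and the part of these markers in the results was not tested. On the scale of the authors' TPM (values scaled by transcript length and library, not remade here from the counts), 67.0% of all calls were higher, against 50.2% on counts, and 29 of the 36 genes were lower.

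Among the early enzymes, Gpi1, the isomerase that makes fructose 6-phosphate, had a level of 223, 222 and 217 CPM with DOX, against 490.3, 449 and 479 CPM without DOX. Phosphofructokinase, the committed step, has liver, muscle and platelet forms encoded by Pfkl, Pfkm and Pfkp. Pfkl (ENSMUSG00000020277, GRCm38 chr10:77986947-78010083, minus strand) had 162, 149.98 and 161 CPM with DOX, against 476, 428 and 472 CPM without DOX, a log2 fold change of -1.54 ± 0.065 (SE; edgeR adjusted p = 5.17e-22). Pfkp had 161, 159.6 and 159.6 CPM with DOX, against 437.9, 421.4 and 452 CPM without DOX (-1.45 ± 0.069; edgeR adjusted p = 2.13e-20). The DOX libraries of all 3 of these genes were far below the no DOX libraries, at 46.7%, 34.4% and 36.6% of the no DOX level. Pfkm went the other way: 93.9, 90.4 and 93.2 CPM with DOX, against 79.1, 84.6 and 86.3 CPM without DOX (0.15 ± 0.041; edgeR adjusted p = 0.00214), with no overlap between the groups. Pfkfb3 and Pfkfb4 encode bifunctional enzymes that set the level of the allosteric activator of phosphofructokinase, and they also moved apart. Pfkfb4 rose to 23.6, 20.3 and 21.7 CPM with DOX, against 16.8, 15.9 and 16.4 CPM without DOX (0.42 ± 0.074; edgeR adjusted p = 6.76e-06). Pfkfb3 had 13.7, 13.4 and 12.3 CPM with DOX, against 17.2, 17.7 and 17.1 CPM without DOX (-0.39 ± 0.095; edgeR adjusted p = 5.59e-04), and on the TPM scale this call was lost, at -0.20. Neither pair of groups overlapped on the CPM scale.

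The aldolases, which cleave the hexose bisphosphate into 2 trioses, and triosephosphate isomerase, which interconverts these, had the deepest falls of the pathway. Aldoa (ENSMUSG00000030695, chr7:126795234-126800751, minus strand) had 184, 179.7 and 183 CPM with DOX, against 805, 729.7 and 799 CPM without DOX, or 23.4% of the no DOX level (-2.09 ± 0.083; edgeR adjusted p = 9.65e-23). Aldoc, the form of brain, had 20.46, 19.4 and 17.7 CPM with DOX, against 63.2, 59.1 and 64.0 CPM without DOX (-1.69 ± 0.062; edgeR adjusted p = 1.03e-23). Tpi1 (ENSMUSG00000023456, chr6:124810586-124814296, minus strand) had 155, 153 and 152 CPM with DOX, against 649, 566 and 652 CPM without DOX (-2.02 ± 0.080; edgeR adjusted p = 9.65e-23). In each of the 3 genes the DOX libraries were close together and well below every no DOX library. Pgk1, the first ATP-forming enzyme, had 24.1, 20.53 and 20.8 CPM with DOX, against 69.8, 63.5 and 67.8 CPM without DOX (-1.61 ± 0.10; edgeR adjusted p = 2.83e-17). Pgam1, which moves the phosphate of phosphoglycerate, had 25.1, 23.8 and 22.4 CPM with DOX, against 54.1, 50.2 and 57.0 CPM without DOX, or 44.5% of the no DOX level. Both stood in the DOX libraries below every no DOX library. Enolase, which forms phosphoenolpyruvate, is encoded by Eno1 in most cells and Eno2 in neurons and endocrine cells. Eno1 had 53.2, 48.2 and 55.8 CPM with DOX, against 165, 146 and 171 CPM without DOX (-1.62 ± 0.081; edgeR adjusted p = 1.39e-19). Eno2 fell less, to 35.6, 37.5 and 38.4 CPM with DOX, against 61.8, 67.5 and 70.0 CPM without DOX (-0.84 ± 0.068; edgeR adjusted p = 1.70e-13). Pkm, the pyruvate kinase, fell to 629, 615 and 638 CPM with DOX, against 1146, 1091 and 1164 CPM without DOX, or 55.4% of the no DOX level, and no library of one group reached the other.

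The counts of Gapdh, the dehydrogenase between the trioses and Pgk1, are uncertain. Gapdh had 114 to 396 counts and 6.90 to 16.5 CPM per library in the count table but 1492 to 3170 TPM in the authors' TPM table, and 82.5% of its 50-base stretches also occur in 218 other gene entries. It had 6.90, 8.72 and 7.03 CPM with DOX, against 8.86, 11.3 and 11.4 CPM without DOX in the miR-23b line (-0.48 ± 0.10; edgeR adjusted p = 7.31e-05). The highest DOX library, at 8.72 CPM, was just below the lowest no DOX library, at 8.86 CPM. Shared stretches were also frequent in Eno1 (72.2%), Pgk1 (68.0%), Pgam1 (41.5%) and Pkm (34.4%), so the CPM of these enzymes, which rest on reads with 1 place in the genome, are less certain in level. Bnip3 (21.9%), Gpi1 (19.3%) and Aldoa (13.5%) shared fewer.

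**Figure D1:**
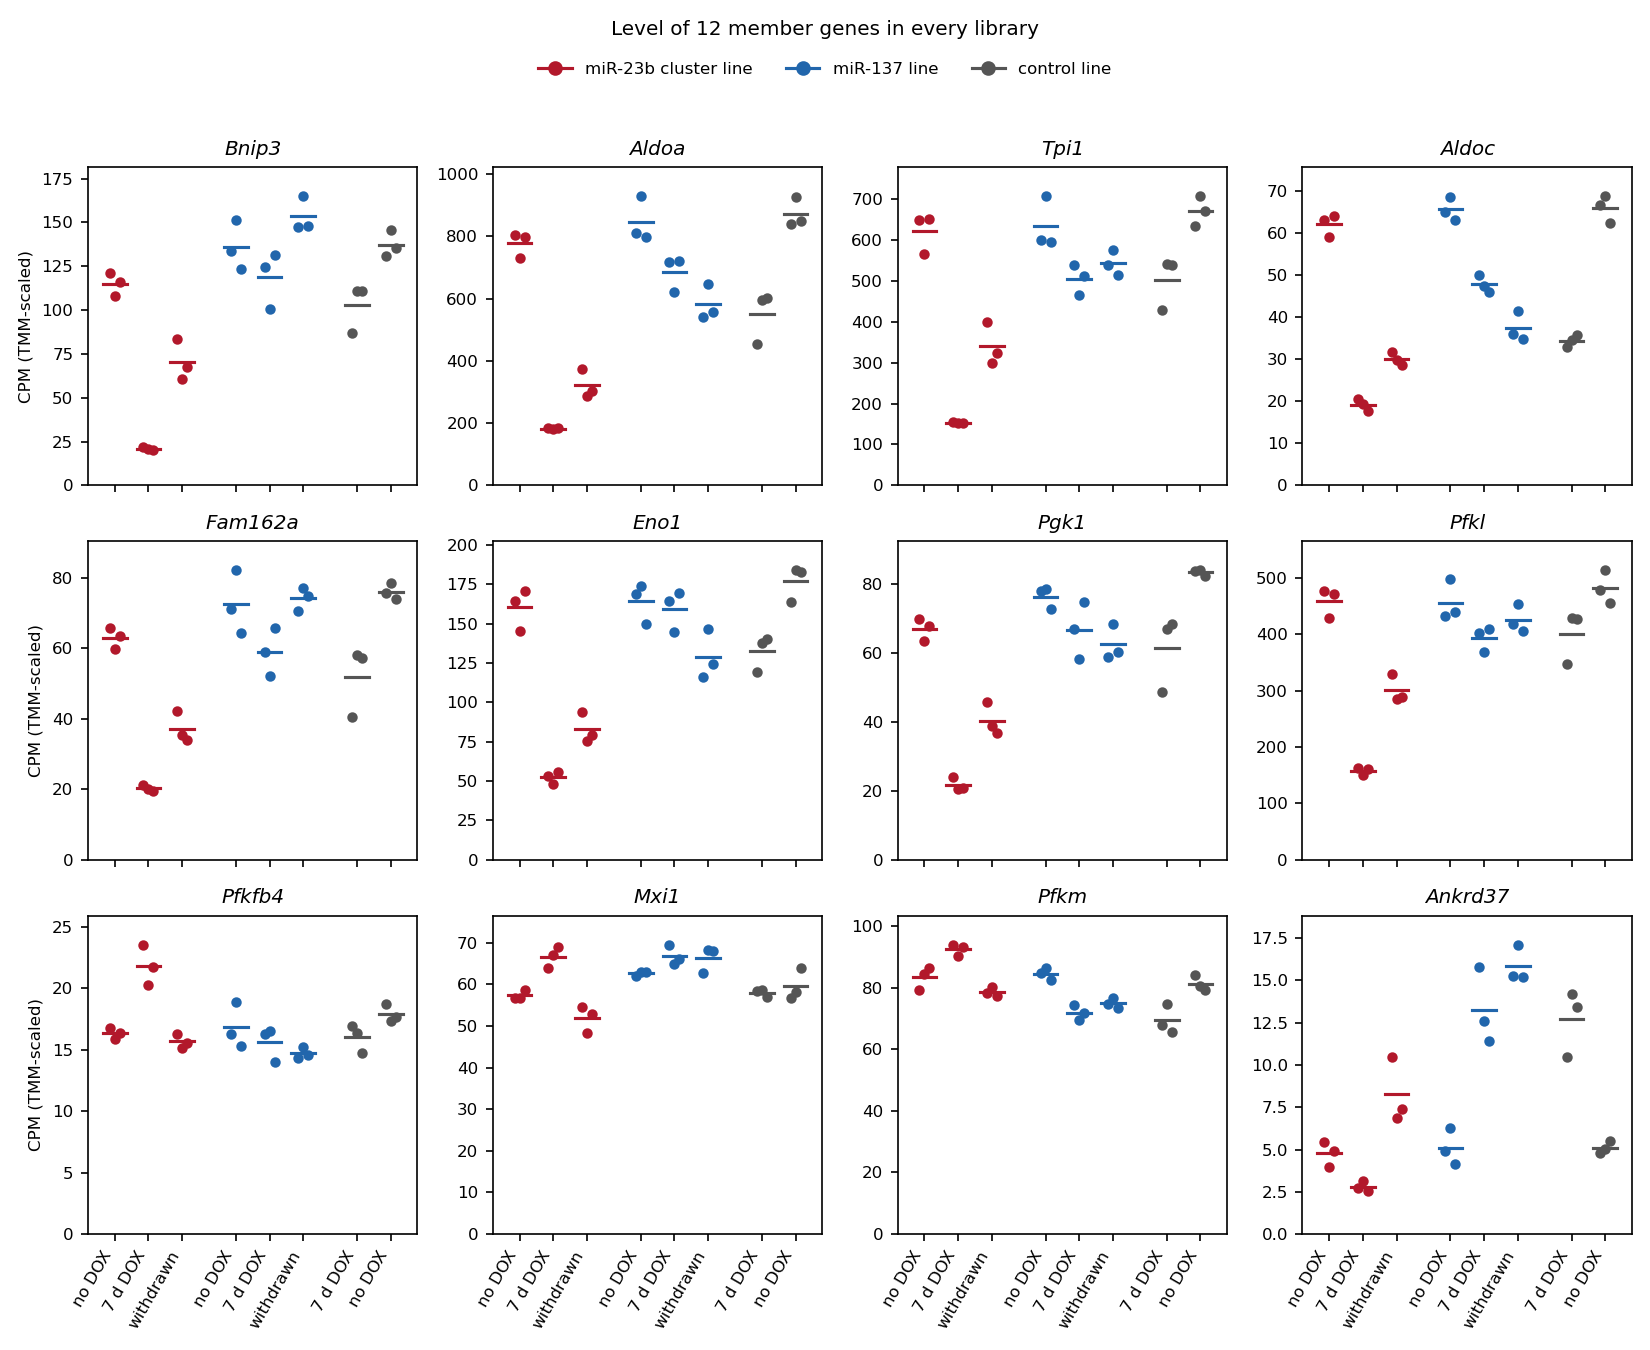
Level of 12 genes in every library, in CPM (TMM-scaled, linear axes from 0). Points are the 3 libraries of a group and lines their means, with no DOX, 7 d DOX and withdrawn cells of the miR-23b and miR-137 lines and 7 d DOX and no DOX cells of the control line. Bnip3, Aldoa and Tpi1 are lowest in the miR-23b line with DOX, where Pfkfb4 and Pfkm are highest.

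Among the hypoxia-inducible genes, Bnip3 and Fam162a, both of mitochondria, had the greatest falls. Bnip3 (ENSMUSG00000078566, chr7:138890836-138909519, minus strand), a receptor on the outer mitochondrial membrane that directs mitochondria to autophagy, had 21.8, 20.9 and 20.2 CPM with DOX, against 121, 108 and 116 CPM without DOX. That is 18.3% of the no DOX level (-2.45 ± 0.10; edgeR adjusted p = 1.02e-21), the greatest fall among the 36 genes. Its relative Bnip3l had 84.4, 77.8 and 75.4 CPM with DOX, against 111, 111 and 111 CPM without DOX (-0.48 ± 0.043; edgeR adjusted p = 2.11e-12). The libraries of both genes separated by group, but the distance was far wider for Bnip3. Fam162a, a mitochondrial protein induced by hypoxia, had 21.2, 20.1 and 19.5 CPM with DOX, against 65.8, 59.8 and 63.3 CPM without DOX (-1.63 ± 0.10; edgeR adjusted p = 9.62e-17). Higd1a, a protein of the inner membrane, had 22.1, 23.6 and 17.6 CPM with DOX, against 25.5, 27.1 and 23.2 CPM without DOX, and its groups overlapped. Its call (-0.25 ± 0.081; edgeR adjusted p = 0.00885) was lost without DOX replicate 3, at -0.15, and without no DOX replicate 2.

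The oxygen-dependent hydroxylases fell to different degrees. Egln1 and Egln3 encode prolyl hydroxylases that mark HIF alpha subunits for degradation. Egln1 had 92.5, 88.8 and 86.6 CPM with DOX, against 130.1, 126 and 125 CPM without DOX (-0.51 ± 0.046; edgeR adjusted p = 3.68e-12). Egln3 had 2.74, 2.397 and 2.96 CPM with DOX, against 6.79, 8.26 and 7.44 CPM without DOX (-1.50 ± 0.14; edgeR adjusted p = 3.35e-12). Egln3 was thus at 35.4% and Egln1 at 70.4% of the no DOX level, without overlap in either. The collagen prolyl hydroxylase subunits moved together, with P4ha1 at 40.1, 36.6 and 38.9 CPM with DOX, against 86.0, 70.4 and 76.4 CPM without DOX (-1.003 ± 0.091; edgeR adjusted p = 3.57e-12). P4ha2 had 26.5, 26.02 and 26.03 CPM with DOX, against 58.6, 54.8 and 58.0 CPM without DOX (-1.12 ± 0.074; edgeR adjusted p = 4.33e-16). Kdm3a, a histone demethylase, and Jmjd6, a jumonji-domain oxygenase, stood at 70.7% and 70.4% of the no DOX level. In glycogen metabolism, Gys1, the glycogen synthase of muscle, fell to 42.4% and Gbe1, the branching enzyme, to 68.7%. Narf, a nuclear prelamin-binding protein, stood at 57.7%, Ero1l, the oxidase of the endoplasmic reticulum, at 71.3%, and Ndrg1, a stress-responsive gene, at 75.8%. Kdm3a, Jmjd6 and these 5 genes all had DOX libraries below every no DOX library.

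Among the secreted products and the regulators, changes were mixed. Vegfa, the angiogenic growth factor, had 268, 302 and 303 CPM with DOX, against 351, 342 and 361 CPM without DOX (-0.27 ± 0.043; edgeR adjusted p = 8.78e-07), with no overlap. Adm, which encodes the vasodilator peptide adrenomedullin, was near the limit of detection at 0.228, 0.305 and 0.493 CPM with DOX, against 0.840, 0.560 and 0.515 CPM without DOX. Its call (-0.92 ± 0.36; edgeR adjusted p = 0.0353) was lost without DOX replicate 1, DOX replicate 2 or no DOX replicate 1, over which the log2 fold change reached -0.69. The call was also lost in DESeq2 (-0.93), with no filter on low counts (-0.91) and on the TPM scale (-0.20). Adm passed the filter only with the libraries of the other lines and was not tested with the no DOX and DOX libraries of the miR-23b line alone. Ankrd37, an ankyrin repeat protein, had 2.74, 3.14 and 2.53 CPM with DOX, against 5.43, 3.96 and 4.92 CPM without DOX (-0.73 ± 0.20; edgeR adjusted p = 0.00209), with every DOX library below every no DOX library. Ddit4, an inhibitor of the growth kinase mTOR, stood at 82.1% of the no DOX level (edgeR adjusted p = 7.69e-04), and on the TPM scale its call was lost, at -0.14. Mxi1, a MAX partner that represses MYC targets, was the hypoxia-inducible gene that rose, with 63.8, 67.0 and 68.9 CPM with DOX, against 56.7, 56.7 and 58.7 CPM without DOX (0.21 ± 0.046; edgeR adjusted p = 1.70e-04). Hif1a, the oxygen-regulated subunit of HIF itself, had 131, 131 and 133 CPM with DOX, against 150.3, 146 and 141 CPM without DOX (-0.15 ± 0.041; edgeR adjusted p = 0.00201). The groups of Hif1a did not overlap, and its call was lost on the TPM scale, at -0.046.

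**Figure D2:**
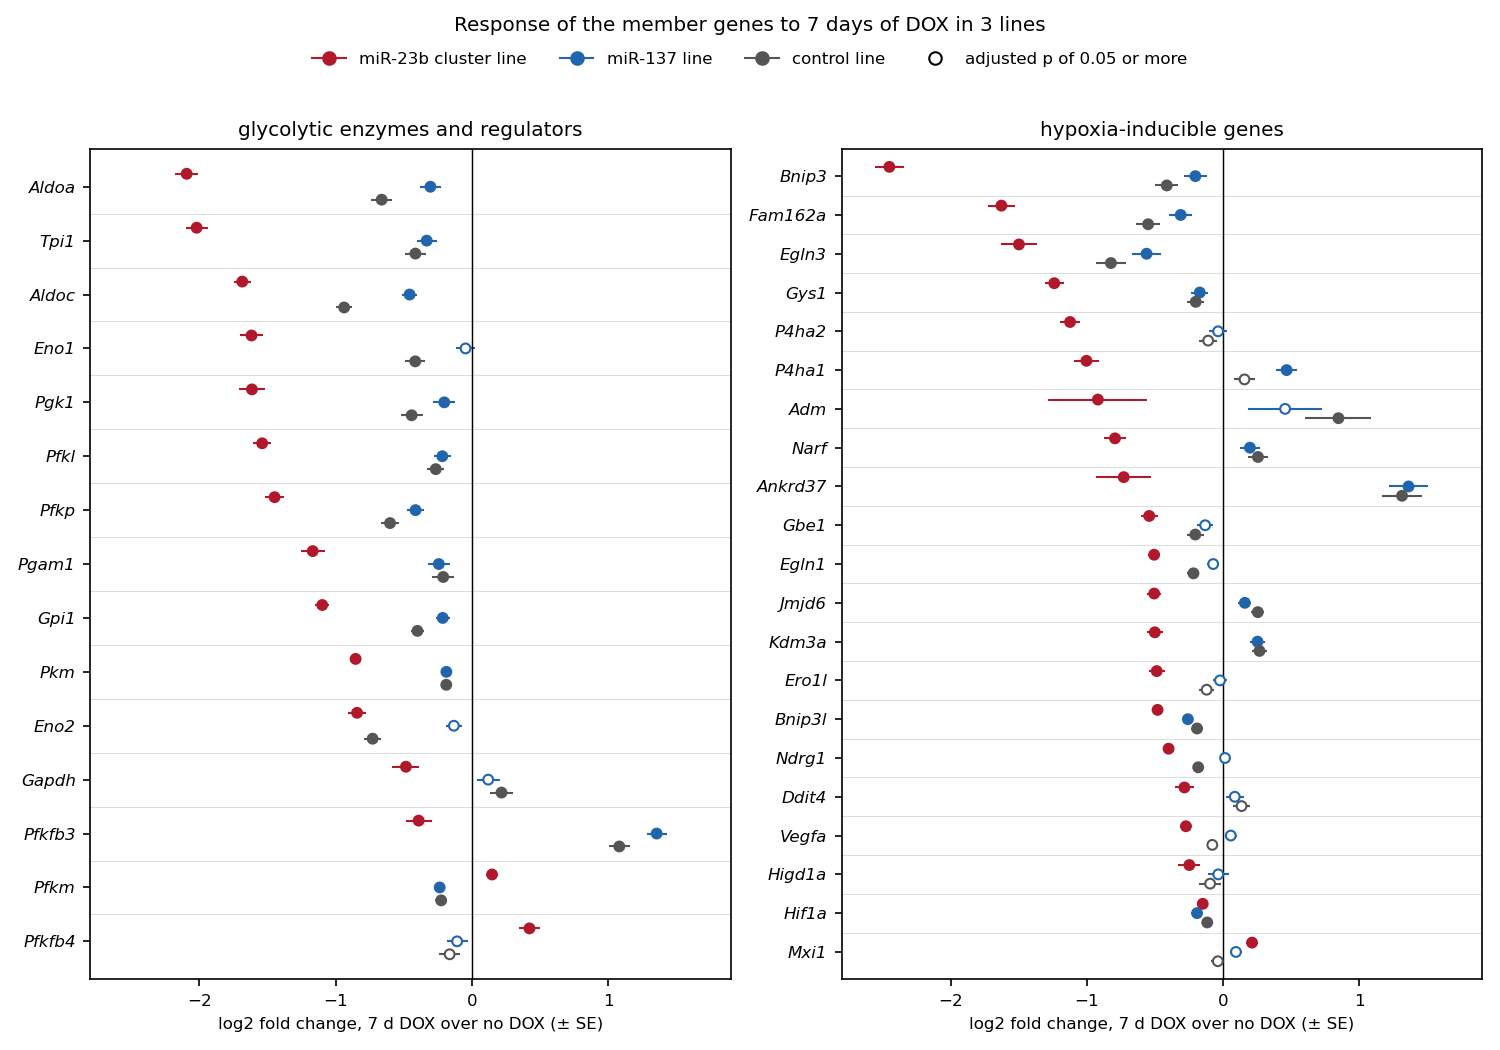
Response of the 36 genes to 7 d of DOX in the miR-23b, miR-137 and control lines, as log2 fold change against no DOX of the same line with its standard error (x axis, log2 scale), 1 gene per row. Hollow points did not pass an adjusted p of 0.05. The miR-23b points of most enzymes lie far left of the other lines, and Ankrd37 and Pfkfb3 lie left of 0 in the miR-23b line and right of 0 in the others.

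Many of these genes also differed between DOX and no DOX in the control line, whose plasmid carries no miRNA by its label. There 21 genes fell, 7 rose and 8 did not pass the test, while 19.3% of all genes tested were lower and 18.5% higher. The median log2 fold change was -0.19 over the 36 genes, -0.40 over the 15 enzymes and -0.11 over the 21 hypoxia-inducible genes. Aldoc had 32.9, 34.6 and 35.8 CPM with DOX, against 66.8, 68.9 and 62.4 CPM without DOX (-0.94 ± 0.056; edgeR adjusted p = 1.36e-16). Egln3 had 4.66, 5.80 and 5.79 CPM with DOX, against 9.68, 9.75 and 9.37 CPM without DOX (-0.82 ± 0.11; edgeR adjusted p = 1.07e-07). Eno2 had 42.5, 47.7 and 51.9 CPM with DOX, against 74.8, 85.1 and 76.2 CPM without DOX (-0.73 ± 0.064; edgeR adjusted p = 6.24e-12). None of these groups overlapped, and each gene also fell in the miR-23b line. Aldoa had 453, 597 and 602 CPM with DOX, against 838, 927 and 849 CPM without DOX (-0.66 ± 0.078; edgeR adjusted p = 6.65e-09), with DOX replicate 1 the lowest. That library was the lowest of its 3 in 31 of the 36 genes, which took 0.494% of its counts, against 0.578% and 0.576% in the other DOX libraries and 0.652%, 0.692% and 0.653% in the no DOX libraries. Its part in the counts was not tested beyond leaving it out, which ended the calls of Pgam1 (at -0.10) and Gys1 (at -0.13).

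Ankrd37, Pfkfb3, Adm and Kdm3a led the 7 genes that rose in the control line. Ankrd37 had 10.5, 14.2 and 13.4 CPM with DOX, against 4.79, 5.06 and 5.50 CPM without DOX (1.31 ± 0.14; edgeR adjusted p = 1.26e-09). Pfkfb3 had 32.7, 39.7 and 38.1 CPM with DOX, against 18.4, 17.1 and 16.7 CPM without DOX (1.08 ± 0.079; edgeR adjusted p = 3.89e-14). Adm had 1.503, 1.33 and 1.58 CPM with DOX, against 0.898, 0.792 and 0.741 CPM without DOX (0.85 ± 0.24; edgeR adjusted p = 0.00515). In all 3 genes every DOX library was above every no DOX library. Kdm3a had 126, 146 and 147 CPM with DOX, against 112, 123 and 113 CPM without DOX (0.27 ± 0.056; edgeR adjusted p = 1.86e-04), also without overlap. Jmjd6 (0.25) and Narf (0.26) rose less, and the call of Narf was lost without DOX replicate 2, at 0.20. Gapdh rose by 0.22 on counts but stood at -0.43 on the TPM scale, and on counts its call was lost in 5 of the 6 cases of 1 library left out, with values of 0.16 to 0.25. The log2 fold change of Hif1a was -0.12 ± 0.041 (edgeR adjusted p = 0.0240), with 132, 119.6 and 119 CPM with DOX, against 124, 137 and 140.5 CPM without DOX. These groups overlapped, and without DOX replicate 2 or 3, or no DOX replicate 2 or 3, the call was lost, with values of -0.18 to -0.082 over the libraries left out. Vegfa, at 371, 372 and 381 CPM with DOX, against 389, 398 and 400.4 CPM without DOX, did not pass the test (-0.079 ± 0.042; edgeR adjusted p = 0.139). The endothelial markers summed to 0.902 to 1.28 CPM in the control DOX libraries, against 0.106 to 0.427 CPM in the no DOX libraries, with 0 of 5 at 0 with DOX and Cdh5 at 0 without it, and the fibroblast and stellate markers to 4.31 to 4.57 CPM with DOX, with 0 of 7 at 0, against 2.396 to 3.92 CPM without DOX, with Lum at 0. Their part in these changes was not tested.

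In the miR-137 line 16 of the 36 genes were lower with DOX, 6 were higher and 14 did not pass the test. Of all genes tested, 21.8% were lower and 21.0% higher. The 15 beta cell markers summed to 22550 to 23470 CPM with DOX, with 0 at 0, against 21080 to 22270 CPM without DOX, with 0 at 0. Singly, 7 of them rose, 5 fell and 3 were not called, with log2 fold changes of -0.652 to 0.889. The 7 exocrine and duct markers summed to 0.926 to 1.49 CPM with DOX, against 0.331 to 0.724 CPM without DOX, with Cpa1, Amy2a5, Krt19 and Sox9 at 0 in both, and the part of these markers in the counts was not tested. The median log2 fold change was -0.12 over the 36 genes, -0.21 over the 15 enzymes and -0.023 over the 21 hypoxia-inducible genes. Egln3 had 5.97, 5.91 and 7.08 CPM with DOX, against 9.60, 9.60 and 8.58 CPM without DOX (-0.56 ± 0.11; edgeR adjusted p = 4.36e-05). Aldoc had 50.1, 47.5 and 46.0 CPM with DOX, against 65.1, 68.7 and 63.2 CPM without DOX (-0.46 ± 0.054; edgeR adjusted p = 5.05e-09). Pfkp had 316, 287 and 339 CPM with DOX, against 402, 448 and 404 CPM without DOX (-0.41 ± 0.066; edgeR adjusted p = 2.10e-06). The groups of these 3 genes, and of Tpi1 (-0.33), did not overlap. Ankrd37 rose to 15.8, 12.6 and 11.4 CPM with DOX, against 4.91, 6.28 and 4.12 CPM without DOX (1.36 ± 0.14; edgeR adjusted p = 2.72e-10). Pfkfb3 rose to 54.1, 44.7 and 54.4 CPM with DOX, against 18.9, 21.9 and 18.6 CPM without DOX (1.36 ± 0.074; edgeR adjusted p = 5.29e-18). P4ha1 had 122, 107 and 128 CPM with DOX, against 85.6, 93.8 and 77.7 CPM without DOX (0.47 ± 0.078; edgeR adjusted p = 5.31e-06). In these 3 genes every DOX library was above every no DOX library, as in Kdm3a (0.25). Hif1a fell to 126, 124 and 122 CPM with DOX, against 144, 147 and 134 CPM without DOX (-0.19 ± 0.041; edgeR adjusted p = 2.13e-04). Vegfa, at 0.056, did not pass the test. The count of genes lowered depended on single libraries: it was 10 without no DOX replicate 2, the highest of its 3 libraries in 33 of the 36 genes, which took 0.680% of its counts, against 0.621% and 0.611% in the other no DOX libraries, and 11 without DOX replicate 2, the lowest of its 3 libraries in 27 of the 36 genes. Without no DOX replicate 2 the calls of Pgk1, Pgam1, Pfkl, Bnip3, Fam162a and Gys1 were lost.

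The responses to DOX themselves differed between the lines. Set against the control line, the response of the miR-23b line was lower in 30 of the 36 genes, higher in 3 and not called in 3, while 19.4% of all genes tested differed downward and 18.1% upward. The median difference in log2 fold change was -0.75 over the 36 genes. Ankrd37 (-2.04 ± 0.25; edgeR adjusted p = 1.90e-08) and Bnip3 (-2.04 ± 0.14; edgeR adjusted p = 6.72e-15) had the greatest differences. Adm followed at -1.76 ± 0.44 (edgeR adjusted p = 0.00139) and Tpi1 at -1.60 ± 0.11 (edgeR adjusted p = 9.61e-15). Pfkfb4 (0.59 ± 0.11; edgeR adjusted p = 2.98e-05), Pfkm (0.37 ± 0.059; edgeR adjusted p = 2.84e-06) and Mxi1 (0.25 ± 0.066; edgeR adjusted p = 0.00246) were the 3 that differed upward. In 8 genes the 2 lines had calls in opposite directions: Pfkm rose in the miR-23b line and fell in the control line, while Pfkfb3, Ankrd37, Adm, Jmjd6, Kdm3a, Narf and Gapdh fell in the miR-23b line and rose in the control line. How many of all genes tested had opposite calls in these 2 lines was not counted. On the TPM scale the log2 fold change of Gapdh in the control line was -0.43, so its opposite calls hold on counts alone. The miR-23b call of Adm was lost in DESeq2, with no filter, on the TPM scale and in 3 of 6 cases of 1 library left out. Adm passed the filter only with the libraries of the other lines, so its opposite calls and its rank here are uncertain. For Hif1a (-0.033 ± 0.058; edgeR adjusted p = 0.698) no difference passed the test, nor for Eno2 (-0.11 ± 0.094; edgeR adjusted p = 0.366). Vegfa differed by -0.19 ± 0.060 (edgeR adjusted p = 0.00928), and this call was lost without miR-23b DOX replicate 1, at -0.13. On the TPM scale 69.9% of all calls in this comparison were upward, against 48.3% on counts, and 26 of the 36 genes differed downward.

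Against the miR-137 line, the response of the miR-23b line was lower in 31 genes, higher in 2 and not called in 3, beside 18.4% of all genes tested downward and 16.8% upward. The greatest differences were those of Bnip3 (-2.25 ± 0.14; edgeR adjusted p = 4.18e-16), Ankrd37 (-2.09 ± 0.25; edgeR adjusted p = 1.07e-08), Aldoa (-1.79 ± 0.11; edgeR adjusted p = 1.39e-15) and Pfkfb3 (-1.75 ± 0.12; edgeR adjusted p = 1.42e-14). Pfkfb4 (0.53 ± 0.11; edgeR adjusted p = 1.40e-04) and Pfkm (0.38 ± 0.058; edgeR adjusted p = 1.74e-06) differed upward. Calls were opposite in 7 genes, with Pfkm higher and Pfkfb3, Ankrd37, Jmjd6, Kdm3a, Narf and P4ha1 lower in the miR-23b line and the reverse in the miR-137 line. The share of all genes tested with opposite calls in this pair of lines was not counted either. The call of Narf in the miR-137 line (0.20) was lost in 4 of 6 cases of 1 library left out, with values of 0.15 to 0.27, and that of Jmjd6 (0.16) without DOX replicate 1, at 0.11. On the TPM scale 73.9% of all calls were upward, against 47.7% on counts, with 29 genes lower and 4 higher. Between the miR-137 and control lines, 0 of the 36 genes had a lower response in the miR-137 line, 5 a higher one and 31 did not pass the test, beside 4.78% of all genes tested downward and 5.90% upward. Those 5 included Eno2 (0.60 ± 0.089; edgeR adjusted p = 9.83e-06), Aldoc (0.48 ± 0.078; edgeR adjusted p = 3.95e-05), Eno1 (0.37 ± 0.10; edgeR adjusted p = 0.0145) and Aldoa (0.36 ± 0.11; edgeR adjusted p = 0.0284). The fifth was Ndrg1 (0.20 ± 0.039; edgeR adjusted p = 5.03e-04). Leaving out single libraries gave 3 to 8 such genes, with 3 without miR-137 no DOX replicate 3 and 8 without miR-137 no DOX replicate 2 or miR-137 DOX replicate 2. The call of Eno1 was lost without miR-137 no DOX replicate 3, and its difference was 0.31 to 0.44 over all single libraries left out. The call of Aldoa was lost in 6 of 12 cases of 1 library left out (control no DOX replicate 2, control DOX replicate 1, and replicates 1 and 3 of both miR-137 groups), with values of 0.24 to 0.44. DESeq2 and the TPM scale also ended the calls of Aldoa (0.359 and 0.341) and Eno1 (0.37 and 0.24). The 3 comparisons between responses share the libraries of the lines they have in common.

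The shares of paralogues at several steps are given on the TPM scale because levels of different genes can only be compared per length. The phosphofructokinase genes together had 760.1 ± 32.9 TPM without DOX (SD, n = 3), 307 ± 10.5 with 7 d DOX and 456.2 ± 49.1 after withdrawal in the miR-23b line. Pfkm made up 3.74% ± 0.248, 11.1% ± 0.198 and 5.85% ± 0.714 of this in the same order. In the control line the share of Pfkm was 4.37% ± 0.610 with DOX, against 3.39% ± 0.176 without DOX. The platelet form Pfkp had the largest share on this scale in the miR-23b line, at 68.7% ± 0.991 with DOX, against 74.3% ± 0.589 without DOX. On counts Pfkp and Pfkl were nearly level there with DOX, at means of 3258.7 and 3202.3. The median TPM per CPM was 1.277 for Pfkp and 0.3674 for Pfkl, though their longest coding transcripts are 4145 and 3730 bases. All shares here thus rest on the authors' TPM, and the cause of this gap was not tested. Pfkfb4 made up 39.4% ± 1.48, 52.6% ± 2.94 and 28.7% ± 1.62 of the Pfkfb3 and Pfkfb4 total in no DOX, 7 d DOX and withdrawn cells of the miR-23b line. In the control line its share was 23.3% ± 4.74 with DOX, against 39.4% ± 0.454 without DOX. In the miR-137 line it was 36.5% ± 2.33, 17.2% ± 3.07 and 17.1% ± 1.59 in no DOX, 7 d DOX and withdrawn cells. Bnip3 made up 44.9% ± 1.18, 17.1% ± 0.528 and 33.9% ± 2.15 of the Bnip3 and Bnip3l total in these conditions of the miR-23b line. In the control line the share was 42.9% ± 3.04 with DOX, against 48.0% ± 1.72 without DOX. Aldoa made up nearly all of the aldolase transcripts in the miR-23b line, at 95.3% ± 0.209 with DOX, against 96.5% ± 0.0627 without DOX, while the aldolase total was 557 ± 10.8 TPM with DOX, against 2228 ± 123 TPM without DOX. Eno2 made up 10.7% ± 0.445 of the enolase transcripts with DOX, against 6.91% ± 0.639 without DOX in the miR-23b line, and 5.54% ± 0.388 with DOX, against 6.91% ± 0.329 without DOX in the control line. For Egln3 the share of the Egln1 and Egln3 total was 3.93% ± 0.389 with DOX, against 7.30% ± 0.832 without DOX in the miR-23b line. For P4ha1 the share of the P4ha1 and P4ha2 total was 27.7% ± 0.597 with DOX, against 24.04% ± 0.779 without DOX in the miR-23b line, and 34.6% ± 0.684 with DOX, against 25.9% ± 0.612 without DOX in the miR-137 line. Summed over the 15 enzymes, the level was 4151 ± 54.5 TPM with DOX, against 10230 ± 473 TPM without DOX in the miR-23b line, and 8233 ± 959 TPM with DOX, against 11350 ± 500.4 TPM without DOX in the control line. These sums include Gapdh, at 1492 to 3170 TPM per library, whose TPM and counts disagree. No test was run on these shares and sums. An exact rank test of 3 libraries against 3 cannot reach a two-sided p below 0.10, and no model over all libraries was fitted to them.

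**Figure D3:**
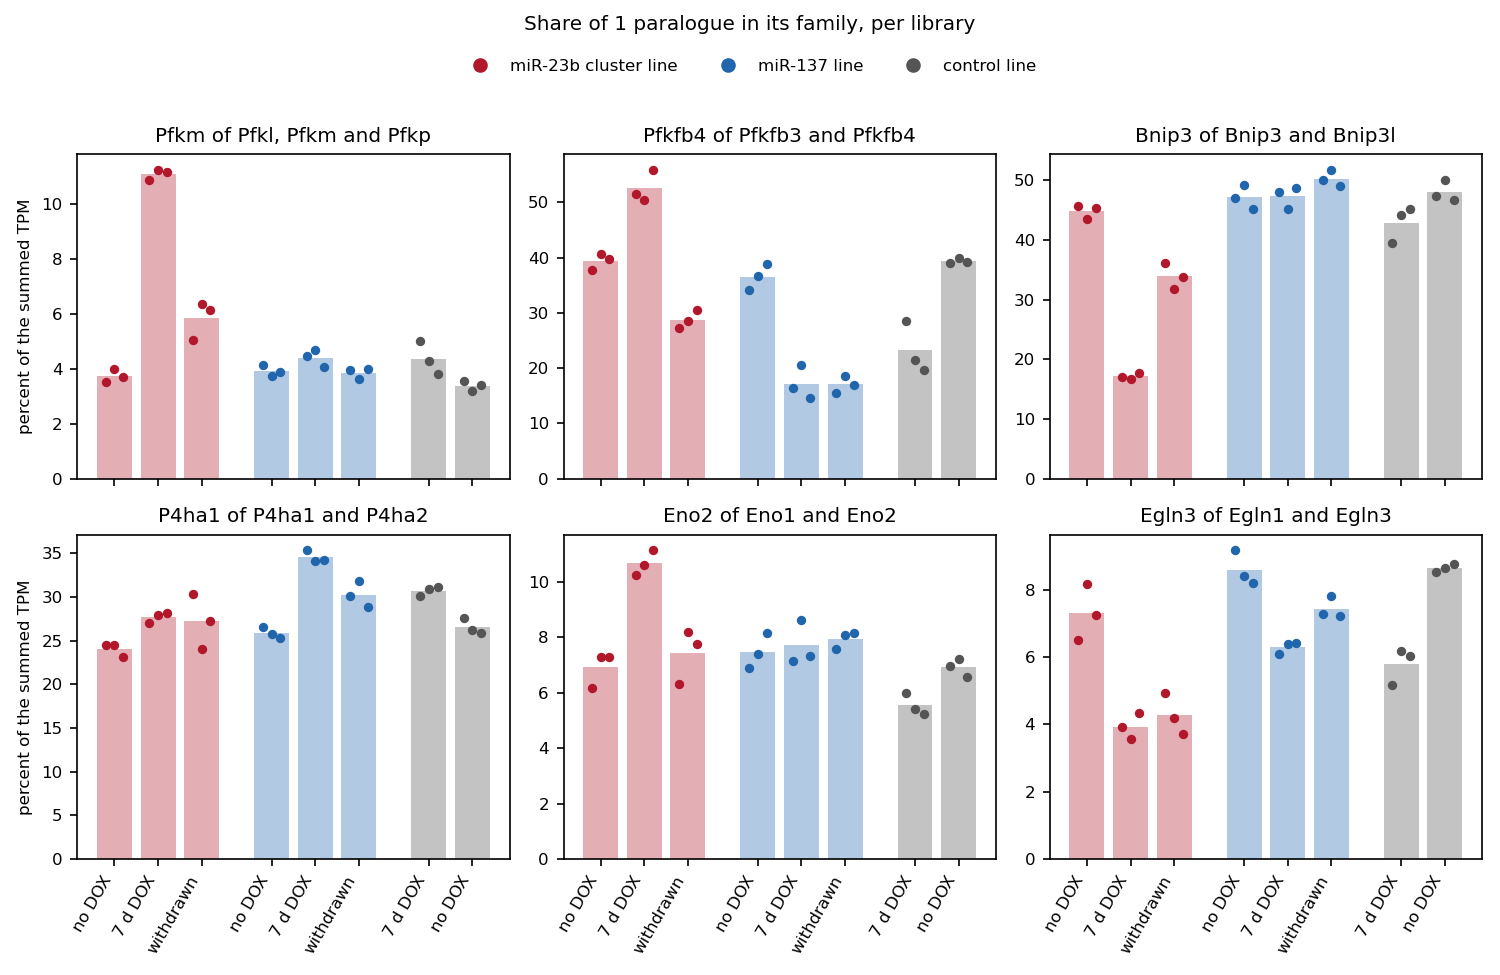
Share of 1 paralogue in the TPM of its family (percent, axes from 0) in no DOX, 7 d DOX and withdrawn cells of the miR-23b and miR-137 lines and in 7 d DOX and no DOX cells of the control line. Bars are means and points the 3 libraries of a group. The shares of Pfkm and Pfkfb4 are highest, and that of Bnip3 is lowest, in the miR-23b line with DOX.

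After 7 d without DOX, most of the lowered genes of the miR-23b line were higher again, and 11 of the 13 lowered enzymes were still lower than without DOX, while the other two, Pfkfb3 and Gapdh, were higher than without it on counts, with Gapdh lower than without DOX on the TPM scale. Against 7 d DOX, withdrawn cells had 27 of the 36 genes higher, 3 lower and 6 not called, while 26.4% of all genes tested were higher and 25.8% lower. The median log2 fold change was 0.54. The 15 beta cell markers summed to 24060 to 24550 CPM in withdrawn cells, with 0 at 0, against 20130 to 20860 CPM with 7 d DOX, with 0 at 0. Singly, 8 of them were higher, 4 lower and 3 not called, with log2 fold changes of -0.826 to 2.34. The 7 exocrine and duct markers summed to 1.24 to 1.78 CPM in withdrawn cells, with Cpa1, Amy2a5, Krt19 and Sox9 at 0, against 0.457 to 0.864 CPM with 7 d DOX, with Amy2a5 and Krt19 at 0, and the part of these markers in the counts was not tested. Bnip3 had 83.5, 60.9 and 67.5 CPM in withdrawn cells, against 21.8, 20.9 and 20.2 CPM with 7 d DOX (1.75 ± 0.11; edgeR adjusted p = 4.08e-16). Tpi1 had 399, 299 and 323 CPM in withdrawn cells, against 155, 153 and 152 CPM with 7 d DOX (1.15 ± 0.081; edgeR adjusted p = 5.83e-15). Ankrd37 had 10.5, 6.88 and 7.38 CPM in withdrawn cells, against 2.74, 3.14 and 2.53 CPM with 7 d DOX (1.56 ± 0.18; edgeR adjusted p = 1.96e-09). These groups did not overlap, and neither did those of Pfkfb3, at 29.9, 24.9 and 25.6 CPM in withdrawn cells, against 13.7, 13.4 and 12.3 CPM with 7 d DOX (1.02 ± 0.088; edgeR adjusted p = 1.68e-12). The 3 genes that were higher with 7 d DOX than without it were the 3 that were lower in withdrawn cells. They were Pfkfb4 (-0.48 ± 0.076; edgeR adjusted p = 1.57e-06), Mxi1 (-0.35 ± 0.048; edgeR adjusted p = 5.84e-08) and Pfkm (-0.24 ± 0.042; edgeR adjusted p = 9.00e-06). Pfkfb4 had 16.3, 15.2 and 15.6 CPM, Mxi1 54.5, 48.4 and 52.8 CPM and Pfkm 78.2, 80.2 and 77.3 CPM in withdrawn cells, all below their levels with 7 d DOX. Withdrawn replicate 1 was the highest of its 3 libraries in 33 of the 36 genes, which took 0.478% of its counts, against 0.420% and 0.428% in the other withdrawn libraries and 0.316%, 0.313% and 0.315% with 7 d DOX. Without it the call of Egln3 (0.44) was lost, at 0.28, and likewise without 7 d DOX replicate 2, at 0.36. On the TPM scale 27.8% of all calls were higher, against 50.6% on counts, with 26 of the 36 genes higher and 3 lower.

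Against no DOX, withdrawn cells of the miR-23b line had 24 of the 36 genes lower, 3 higher and 9 not called, beside 20.6% of all genes tested lower and 19.2% higher. Both withdrawal comparisons share the withdrawn libraries, and their DOX and no DOX libraries also enter the response to DOX. Of the 33 genes lower with 7 d DOX, 18 in withdrawn cells were higher than with DOX and lower than without it. Enzymes made up 10 of these. This joint count was not made over all genes that were lower with DOX, so its share among them is not known. The 15 enzymes stood at a median of 63.1% of the no DOX level after withdrawal, against 44.5% with 7 d DOX, and the 21 hypoxia-inducible genes at 87.6%, against 70.4%. Aldoa had 375, 288 and 303 CPM in withdrawn cells, against 805, 729.7 and 799 CPM without DOX (-1.27 ± 0.080; edgeR adjusted p = 5.90e-16). Aldoc had 31.7, 29.9 and 28.6 CPM in withdrawn cells, against 63.2, 59.1 and 64.0 CPM without DOX (-1.04 ± 0.060; edgeR adjusted p = 3.36e-17). Egln3 had 4.27, 3.35 and 3.18 CPM in withdrawn cells, against 6.79, 8.26 and 7.44 CPM without DOX (-1.05 ± 0.13; edgeR adjusted p = 2.50e-08). In all 3 the withdrawn libraries lay below every no DOX library. Eno2 and Gbe1 were lower than without DOX and did not pass the test against 7 d DOX: Eno2 had 61.8, 67.5 and 70.0 CPM without DOX, 35.6, 37.5 and 38.4 CPM with 7 d DOX and 39.8, 38.6 and 37.9 CPM after withdrawal. Gbe1 had 41.8, 38.1 and 36.5 CPM without DOX, 26.6, 26.5 and 26.6 CPM with 7 d DOX and 28.7, 27.8 and 26.2 CPM after withdrawal. Adm had 0.158, 0.310 and 0.254 CPM in withdrawn cells and passed the test (-1.38 ± 0.41; edgeR adjusted p = 0.00726), but not without withdrawn replicate 1 or no DOX replicate 1, with values of -1.60 to -1.13 over the libraries left out, and it too was not tested with its own groups alone. The 3 genes above the no DOX level were Ankrd37 (0.83 ± 0.17; edgeR adjusted p = 8.62e-05), Pfkfb3 (0.63 ± 0.086; edgeR adjusted p = 1.31e-07) and Gapdh (0.37, but -0.66 on the TPM scale). Hif1a returned to 150.2, 146 and 147 CPM and did not differ from no DOX by the test (0.018 ± 0.041; edgeR adjusted p = 0.763), while Vegfa, at 311, 294 and 318 CPM, was still lower (-0.19 ± 0.043; edgeR adjusted p = 4.00e-04).

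In withdrawn cells of the miR-137 line, 12 hypoxia-inducible genes were above and 10 enzymes below the no DOX level. Against 7 d DOX, 14 of the 36 genes were higher, 3 lower and 19 not called, beside 14.7% of all genes tested higher and 14.8% lower. Egln3 had 9.16, 11.4 and 9.43 CPM in withdrawn cells, against 5.97, 5.91 and 7.08 CPM with 7 d DOX (0.66 ± 0.10; edgeR adjusted p = 3.42e-06). P4ha2 had 75.4, 83.6 and 81.2 CPM in withdrawn cells, against 55.3, 53.0 and 63.0 CPM with 7 d DOX (0.49 ± 0.062; edgeR adjusted p = 8.06e-08). Neither gene's groups overlapped, nor did those of Gys1 (0.44) and Egln1 (0.41). The 3 lower genes were enzymes: Aldoc had 36.1, 41.5 and 34.8 CPM in withdrawn cells, against 50.1, 47.5 and 46.0 CPM with 7 d DOX (-0.36 ± 0.056; edgeR adjusted p = 4.90e-06). Eno1 followed at -0.30 ± 0.072 (edgeR adjusted p = 0.00132) and Aldoa at -0.24 ± 0.078 (edgeR adjusted p = 0.0184), a call that was lost without DOX replicate 1 or 3 or withdrawn replicate 1 or 3, with values of -0.32 to -0.19. Set against no DOX, withdrawn cells had 14 genes higher, 10 lower and 12 not called, beside 21.6% of all genes tested higher and 21.7% lower. By group, 12 hypoxia-inducible genes were higher and 0 lower than without DOX, while 10 enzymes were lower and 2 higher. Withdrawn replicate 2 was the highest of its 3 libraries in 29 of the 36 genes, and no DOX replicate 2 in 33. The 6 leukocyte markers summed to 3.41 to 3.77 CPM in withdrawn cells, against 1.93 to 2.82 CPM without DOX. The exocrine and duct markers summed to 0.959 to 1.21 CPM in withdrawn cells, against 0.331 to 0.724 CPM without DOX, with Cpa1, Amy2a5, Krt19 and Sox9 at 0 in both, and the part of these libraries and markers was not tested. Ankrd37 had 15.3, 17.1 and 15.2 CPM in withdrawn cells, against 4.91, 6.28 and 4.12 CPM without DOX (1.61 ± 0.13; edgeR adjusted p = 8.47e-13). Pfkfb3 had 51.1, 52.7 and 50.4 CPM in withdrawn cells, against 18.9, 21.9 and 18.6 CPM without DOX (1.37 ± 0.072; edgeR adjusted p = 2.36e-18). In both genes every withdrawn library was above every no DOX library, and Adm (0.82 ± 0.25; edgeR adjusted p = 0.00656) and P4ha1 (0.66 ± 0.076; edgeR adjusted p = 3.41e-09) were also higher than no DOX. Aldoc (-0.81 ± 0.054; edgeR adjusted p = 2.12e-15), Aldoa (-0.54 ± 0.077; edgeR adjusted p = 3.30e-07), Eno1 (-0.35 ± 0.072; edgeR adjusted p = 1.29e-04) and Pgk1 (-0.29 ± 0.080; edgeR adjusted p = 0.00315) were lowest against no DOX, with no overlap in any of them. On the TPM scale 39.5% of all calls against no DOX were higher, against 49.9% on counts, with 10 of the 36 genes higher and 9 lower.

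**Figure D4:**
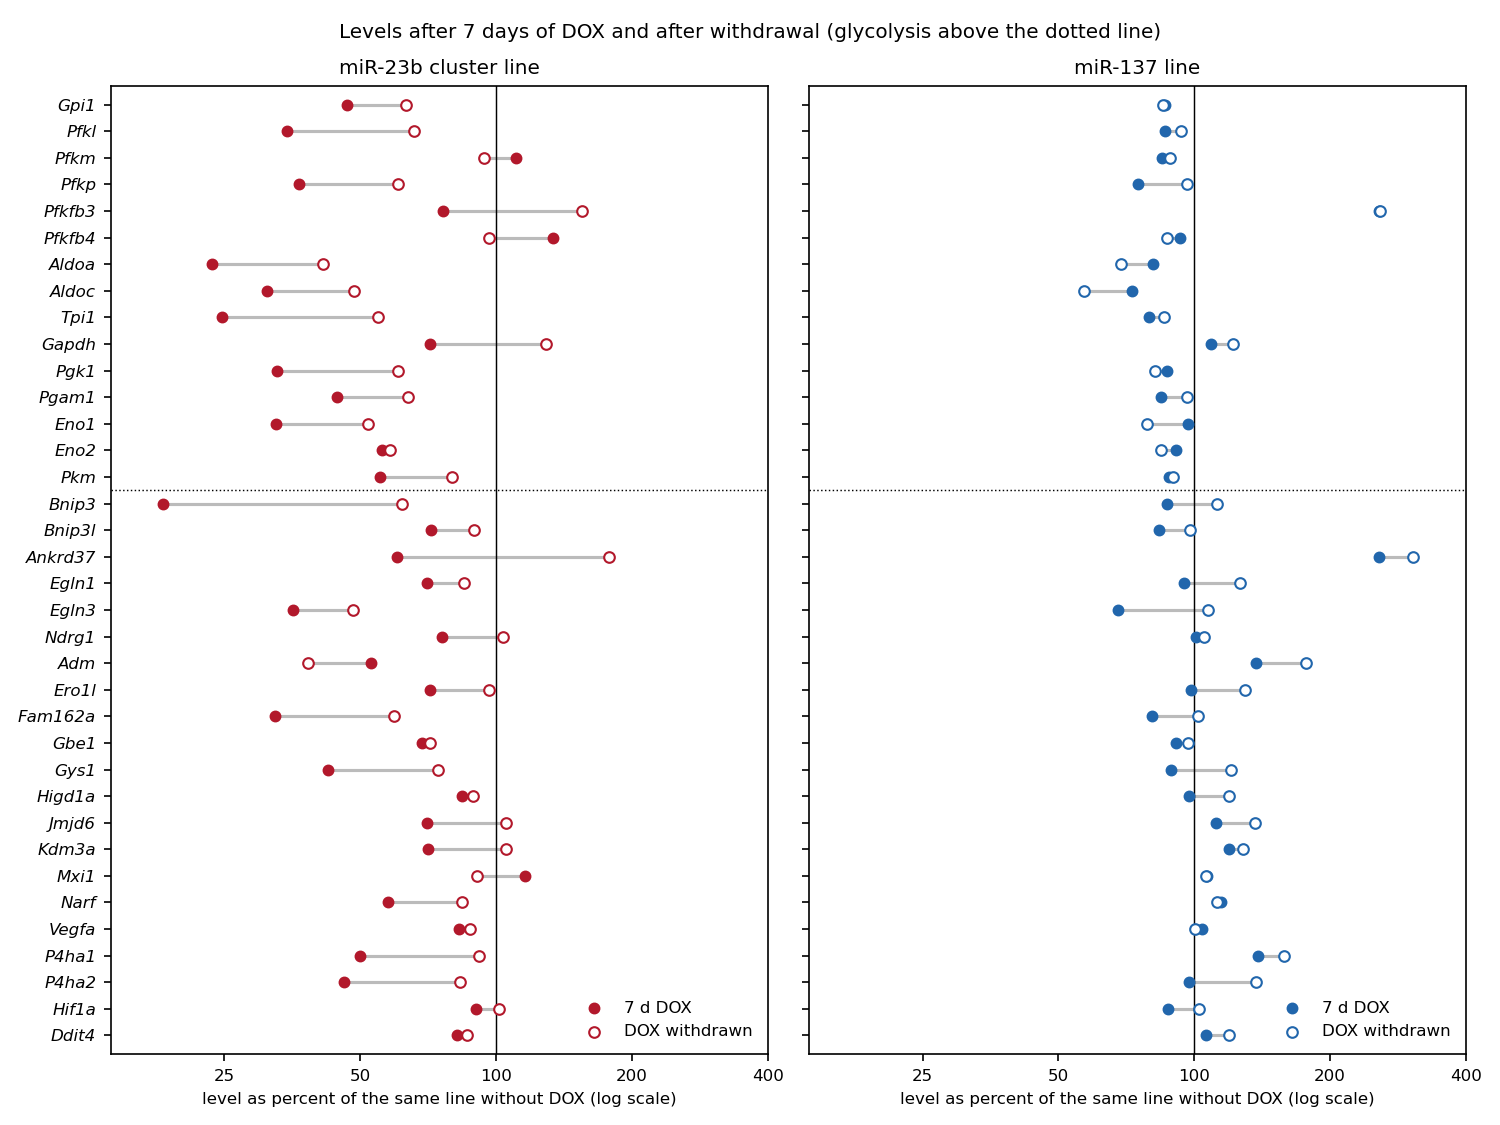
Level of the 36 genes as a percentage of the no DOX level of the same line (log axis), with filled points for 7 d DOX and open points for withdrawn cells, in the miR-23b line and the miR-137 line, 1 gene per row. In the miR-23b line most open points lie between the filled points and 100%, and Ankrd37 and Pfkfb3 lie above 100% after withdrawal in both lines.

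The lines were also compared without DOX. In the miR-23b line without DOX, 5 of the 36 genes were lower than in the control line without DOX, 0 were higher and 31 did not pass the test, beside 2.78% of all genes tested lower and 3.59% higher. Egln3 had 6.79, 8.26 and 7.44 CPM in the miR-23b line, against 9.68, 9.75 and 9.37 CPM in the control line (-0.34 ± 0.10; edgeR adjusted p = 0.0414). Pgk1 had 69.8, 63.5 and 67.8 CPM in the miR-23b line, against 83.8, 84.0 and 82.4 CPM in the control line (-0.32 ± 0.081; edgeR adjusted p = 0.0121). Fam162a (-0.27 ± 0.085; edgeR adjusted p = 0.0450), Eno2 (-0.24 ± 0.062; edgeR adjusted p = 0.0151) and Vegfa (-0.17 ± 0.042; edgeR adjusted p = 0.00965) were the others, and the libraries of all 5 genes were lower in the miR-23b line without overlap. Of all 36 genes, 15 had every miR-23b library below every control library, and 1 had every one above. How many of all genes tested separate in this way was not counted. In edgeR's test 11 of the 36 had an unadjusted p below 0.05. Leaving out any 1 of the 6 libraries left 2 or 3 of the 5 calls, and on the TPM scale 33.7% of all calls were higher, against 56.3% on counts, with 1 of the 36 genes lower. In the miR-137 line without DOX, 0 of the 36 genes passed edgeR's test in either direction, beside 0.814% of all genes tested lower and 1.89% higher. At an unadjusted p below 0.05 it was 5 genes. DESeq2 also called 0, while 2 genes were called lower with no filter on low counts, 2 with the own groups only and 1 with a replicate block.

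Genes of the same pathways outside the list were read for comparison, against shares of all genes tested of 28.6% lower and 28.8% higher in the miR-23b line, 19.3% and 18.5% in the control line, and 21.8% and 21.0% in the miR-137 line. Of 18 other genes of glycolysis, lactate export and glucose entry that were tested, 11 fell and 3 rose with DOX in the miR-23b line, 4 fell and 1 rose in the control line, and 5 fell and 2 rose in the miR-137 line. Ldha, which turns pyruvate into lactate, had a log2 fold change of -3.77 ± 0.14 (SE; edgeR adjusted p = 1.37e-23) in the miR-23b line and -0.46 ± 0.11 (SE; edgeR adjusted p = 0.00135) in the control line. For the lactate exporter Slc16a3 it was -2.57 ± 0.12 (SE; edgeR adjusted p = 2.64e-20) in the miR-23b line. These exceed the change of any of the 15 enzymes in the same line in size. Hk1, the hexokinase of the first step, fell by less, at -0.56 ± 0.046 (SE; edgeR adjusted p = 2.54e-13), and Bpgm, which diverts a triose intermediate, rose, at 0.58 ± 0.079 (SE; edgeR adjusted p = 5.41e-08). Hk3, another hexokinase, was near the limit of detection, at 0.644 ± 0.205 CPM with DOX, against 0.109 ± 0.045 CPM without DOX (SD, n = 3 each), and rose by 2.43 ± 0.52 (SE; edgeR adjusted p = 1.22e-04). At these levels Hk3 may have passed the filter on low counts only through groups where it was high. Its rise, which is among the 3 counted above, is thus uncertain. Of 35 other hypoxia-inducible genes tested, 17 fell and 8 rose in the miR-23b line, 17 fell and 4 rose in the control line, and 17 fell and 5 rose in the miR-137 line. The greatest fall among them was that of Ak4, a mitochondrial adenylate kinase, at 0.322 ± 0.238 CPM with DOX, against 37.2 ± 2.19 CPM without DOX in the miR-23b line (SD, n = 3 each), a log2 fold change of -6.79 ± 0.27 (SE; edgeR adjusted p = 9.95e-23). In the control line Ak4 fell by less, at -0.65 ± 0.11 (SE; edgeR adjusted p = 1.55e-05). Pdk1, a mitochondrial kinase that inhibits pyruvate dehydrogenase, and the transcription factor Bhlhe40 had -1.89 ± 0.10 (SE; edgeR adjusted p = 6.29e-19) and -2.52 ± 0.11 (SE; edgeR adjusted p = 8.20e-22) in the miR-23b line. P4ha3, another collagen prolyl hydroxylase subunit, rose by 1.19 ± 0.19 (SE; edgeR adjusted p = 1.26e-06), and Stc1, a secreted glycoprotein, rose, at 0.63 ± 0.055 (SE; edgeR adjusted p = 1.10e-12). Of 15 components of the HIF pathway tested, which include Egln1, Egln3 and Hif1a, 6 fell and 4 rose in the miR-23b line, 6 fell and 0 rose in the control line, and 4 fell and 2 rose in the miR-137 line. Vhl, the ubiquitin ligase subunit that binds hydroxylated HIF, had -0.38 ± 0.060 (SE; edgeR adjusted p = 8.45e-07) in the miR-23b line and 0.071 ± 0.057 (SE; edgeR adjusted p = 0.345) in the control line. Arnt, the constitutive HIF partner, had 0.11 ± 0.035 (SE; edgeR adjusted p = 0.00733), and Hif1an, which hydroxylates an asparagine of HIF, had 0.11 ± 0.031 (SE; edgeR adjusted p = 0.00198) in the miR-23b line.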

How the data were processed

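The deposited files hold raw counts of reads per gene for 24 libraries of polyA RNA in 8 groups, made by the authors without normalization, and a deposited series table held the same counts. A second table was read as TPM, scaled by the authors, because its columns summed to between 999999.3 and 1000001.3. Per the submitters' processing notes, the tools were featureCounts, RSEM 1.2.19, HTSeq 0.6.1, STAR 2.4.0g and cutadapt 1.3, with the builds GRCm38 and mm10. The count table and the TPM table both carry HTSeq in their names, and the notes do not say which tool made which. Reads with more than 1 place in the genome (25.4% to 27.7% of all reads listed) and outside genes (9.62% to 12.1%) stayed out of library sizes and tests.

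The count test was edgeR 4.0.16 (R 4.3.3), with filterByExpr, TMM scaling and 1 model of 8 group means for all 24 libraries. The 12 comparisons used the quasi-likelihood F test with Benjamini-Hochberg adjustment over 14866 genes, and a gene was called at an adjusted p below 0.05. SE was taken as the absolute log2 fold change over the root of F, with n = 3 libraries per group. Levels are CPM of TMM-scaled library sizes, except for the miRNA loci, which are unadjusted. The fit was tested on simulated data. Alternatives were DESeq2 1.42.0, upper quartile scaling, no filter, limma 3.58.1 on log2(TPM + 1), a replicate block, the own groups only, and each library left out in turn. The 36 genes and all lists were chosen with earlier results of these data known. Library values are given for up to 8 called genes per direction in the miR-23b DOX comparison and up to 4 in the others, by size of change, and for Hif1a, Vegfa and the paralogue pairs whatever their values. Others were added after their values were seen. Sequences are from RefSeq and the GENCODE M21 annotation of GRCm38. Which leukocyte markers were at 0 is not reported here.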

Additional observations from a re-analysis of the deposited data

Results flagged for a closer look

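The differences between the lines in their response to DOX were tested as differences of log2 fold changes in edgeR's fit, and those that passed are brought together here, with negative values where the miR-23b line, or the miR-137 line, was the lower one. Groups of 3 libraries are too small for a test of single outlying libraries.

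Between the miR-23b and control lines, 30 genes differed downward and 3 upward, beside 19.4% and 18.1% of all genes tested. The greatest downward differences were -2.04 ± 0.25 for Ankrd37 (log2 ± SE), -2.04 ± 0.14 for Bnip3, -1.76 ± 0.44 for Adm and -1.60 ± 0.11 for Tpi1. That of Adm is uncertain, since its call in the miR-23b line was lost in DESeq2, with no filter and on the TPM scale. Opposite calls in the 2 lines gave a difference of -1.47 ± 0.12 for Pfkfb3, -1.05 ± 0.11 for Narf, -0.77 ± 0.082 for Kdm3a, -0.76 ± 0.070 for Jmjd6 and -0.70 ± 0.13 for Gapdh, whose log2 fold change in the control line was -0.43 on the TPM scale and whose call there was lost on counts in 5 of 6 cases of 1 library left out. The upward differences were 0.59 ± 0.11 for Pfkfb4, 0.37 ± 0.059 for Pfkm and 0.25 ± 0.066 for Mxi1.

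Between the miR-23b and miR-137 lines, 31 genes differed downward and 2 upward, beside 18.4% and 16.8% of all genes tested. Bnip3 differed by -2.25 ± 0.14, Ankrd37 by -2.09 ± 0.25, Aldoa by -1.79 ± 0.11 and Pfkfb3 by -1.75 ± 0.12. P4ha1 (-1.47 ± 0.12), Narf (-0.99 ± 0.11), Kdm3a (-0.75 ± 0.082) and Jmjd6 (-0.67 ± 0.070) had opposite calls in the 2 lines. Pfkfb4 (0.53 ± 0.11) and Pfkm (0.38 ± 0.058) differed upward.

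Between the miR-137 and control lines, 5 genes differed upward, beside 5.90% of all genes tested, against 3 by DESeq2 and 13 with no filter on low counts. Eno2 differed by 0.60 ± 0.089, Aldoc by 0.48 ± 0.078, Eno1 by 0.37 ± 0.10 and Aldoa by 0.36 ± 0.11, a call lost in 6 of 12 cases of 1 library left out.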

How the results depend on the processing

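Of 260 calls of the 36 genes over the 12 comparisons, DESeq2 ended 17, TPM values 38, upper quartile scaling 5, no filter 3, own groups only 1 (with 2 calls of Adm in the miR-23b line not tested there) and the replicate block 0. Leaving out 1 library ended 101 of 1986. The direction turned only on TPM values: Gapdh, in control cells with DOX (-0.43), in withdrawn against no DOX cells of the miR-23b line (-0.66) and of the miR-137 line (-0.27), and Ndrg1 in the last of these (-0.056). The cause was not tested.

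On TPM values, genes called over the whole table were 2792 lower for DOX in the miR-23b line, 1622 lower for its difference from control, 1451 lower and 4113 higher for its difference from the miR-137 line, 538 higher for miR-137 minus control, 2125 higher for withdrawal against DOX in the miR-23b line, and 1434 and 2134 higher for withdrawal against DOX and no DOX in the miR-137 line. Without DOX they were 143 higher in the miR-23b line, and 57 lower and 95 higher in the miR-137 line, against control. Of the 36 genes, TPM values gave 1 lower and 2 higher for miR-137 minus control, 4 higher for miR-23b minus miR-137, 1 lower for withdrawal against DOX in the miR-137 line and 1 lower for the miR-23b line without DOX. DESeq2 gave 3 higher for miR-137 minus control and 2 lower for the miR-23b line without DOX. With no filter there were 13 higher for miR-137 minus control, and without DOX 11 lower and 1 higher in the miR-23b line and 2 lower in the miR-137 line, with 194 lower over all genes. With own groups only, the lines without DOX gave 11 lower and 1 higher (miR-23b) and 2 lower (miR-137). Replicate numbers were not used to pair libraries in the main test. Same-numbered libraries correlated by -0.055 to 0.083 in their deviations from group means, which cannot show whether they were handled together. The labels do not say this either. The replicate block gave 1 lower among the 36 and 191 lower over all genes for the miR-137 line without DOX.

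Leaving out 1 library gave 10 to 18 genes lower for DOX in the miR-137 line, 3 to 8 higher for miR-137 minus control, and for the miR-23b line without DOX 2 to 3 lower and 0 to 1 higher. Over all genes it gave 212 to 320 lower and 252 to 367 higher for that line, and 54 to 113 lower and 116 to 193 higher for the miR-137 line without DOX. Adm, at under 2 CPM, is limited by depth.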
